A study of Homo sapiens with 12 samples.

Results

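ATF3, CEBPB, CEBPD, TRIB3, SESN2 and STC2 are genes of the integrated stress response that lie downstream of the transcription factor ATF4, and their RNA was followed in SW480 cells, a line established from a human colorectal adenocarcinoma. The 6 genes were chosen by symbol, and all 6 are among the 3699 genes of the deposited table. Per the labels, 3 libraries came from untreated cells, 3 from cells given PUE, 3 from cells given GLY and 3 from cells given the GLY and PUE combination, written GLY_PUE here. The abbreviations are kept as the labels give them. Flasks were seeded and left for 12 h in IMDM plus 10% serum before fresh medium, carrying the treatment or none, replaced it for another 12 h. The time printed for the GLY libraries is 12 h for replicate 1, 13 h for replicate 2 and 14 h for replicate 3, whereas the protocol gives 12 h for all. Treatments named BER and WOG in the protocol were not analysed here. The extraction protocol also speaks of retinas, although every sample is labelled as colon cancer cells. Whether the replicates are separate cultures is not in the labels, so every p-value reflects only how far these libraries vary, and that variation may be technical.

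In the integrated stress response, kinases that sense amino acid shortage, misfolded protein in the endoplasmic reticulum (ER), viral RNA or heme deficiency phosphorylate the translation factor eIF2. General translation then falls while the ATF4 message is translated more, and ATF4 switches on genes for amino acid supply, antioxidant defence, further transcription factors and, under lasting stress, cell death. In colorectal cancer cells the pathway is known as a response to nutrient shortage and to drugs that disturb the ER or mitochondria. ATF4 itself and the eIF2 kinases are not among the genes of the deposited table, so their RNA could not be followed here.

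The promoters of the genes were examined for the short DNA elements that ATF4, its C/EBP partners and ER stress factors are known to bind. RefSeq windows (GRCh38.p14, the 250 bases before an annotated start) were matched by symbol for 5 of the 6 genes, 9 windows in all, and CEBPD was not used here. The build behind the expression files is not given in the sources used here, so these windows give context only. The windows of SESN2 and ATF3 are shown because SESN2 rose most among the 6 genes under GLY, ATF3 rose most among the 3 transcription factors of the 6, and both carry matches described next, as do windows of STC2 and CEBPB. Capitals mark matches to CCAAT (read here as its reverse complement, ATTGG) and to TGATGNAA, and the run for ATF3 stops where an annotated exon begins.
SESN2, chr1:28259268-28259517, plus strand: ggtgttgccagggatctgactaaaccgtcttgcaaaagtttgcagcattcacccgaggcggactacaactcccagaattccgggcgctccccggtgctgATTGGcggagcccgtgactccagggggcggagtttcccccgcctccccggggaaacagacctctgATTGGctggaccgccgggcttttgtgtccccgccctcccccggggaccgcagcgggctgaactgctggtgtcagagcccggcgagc
ATF3, chr1:212565157-212565333, plus strand: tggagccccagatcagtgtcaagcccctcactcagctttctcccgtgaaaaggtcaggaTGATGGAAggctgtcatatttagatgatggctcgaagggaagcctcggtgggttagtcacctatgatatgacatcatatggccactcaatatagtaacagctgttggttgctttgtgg
Both strands were searched, and CCAAT overlaps none of the other matches. CCAAT occurs in SESN2 at 151 and 86 bases before the start, in the ATF3 window at 25, in STC2 at 100 and in 1 CEBPB window at 245. It is a common element, held by 32% of all 35116 windows of the same length. TGATGNAA, a C/EBP-ATF element with 1 free base, is held by 3.14% of all windows and was found among the 9 only in ATF3, 191 bases before the start. The strict C/EBP-ATF element TGATGCAA (0.772% of all windows), the cAMP response element TGACGTCA (1.65%), its first letters TGACGT (7.1%, overlapping TGACGTCA), the hybrid TGACGCAA (0.478%) and the ER stress response element (0.074%, which contains CCAAT) matched in none of the 9 windows. That says only that these letters are not in these windows. The windows of TRIB3 overlap one another, and each has 174 of its 250 bases in annotated TRIB3 exons. The STC2 window, with its CCAAT match, lies wholly in annotated STC2 exons.

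Library totals, recovered from the ratio of counts to expression values in the table, were 19.4 to 21.1 M reads. Values are given in CPM, counts divided by the library total and multiplied by 1e+06, and means with their SD over n = 3 libraries. The table is a list selected by the authors for change, so the share of all genes tested that pass is printed beside the counts. Libraries numbered 3 stood apart from numbers 1 and 2 where GLY was absent: 24.3% of the 3429 genes tested differed between the number 3 libraries and the others in untreated and PUE cells together, against 14.6% in cells given GLY. The changes of the 6 genes and the calls of the gene lists are therefore also given without them. Among markers of colon epithelium, 3 of 12 are in the table (CDX2, VIL1 and LGR5) and were detected in untreated cells, with summed levels of 72.5 to 101 CPM there and 73.1 to 103 CPM under PUE. These fell to 12.4 to 21.1 CPM under GLY and 13.8 to 15.6 CPM under GLY_PUE, where LGR5 was at 0 in 1 library each. VIL1 no longer passed when libraries were scaled within the table. CDX2 makes up most of the colon epithelium sum, at a mean of 73.3 of 82.9 CPM in untreated cells. The other epithelial markers are not in this table of genes selected for change, so the fall describes only the listed ones. Among fibroblast, endothelial and leukocyte markers, 3 of 12 are in the table (PDGFRB, CD14 and CD68), with summed levels of 5.54 to 8.02 CPM in untreated cells, 6.14 to 7.003 under PUE, 19.0 to 28.3 under GLY and 20.04 to 27.7 under GLY_PUE. CD68, a lysosomal protein gene, makes up most of that sum. The markers went both ways: CD14, a monocyte receptor gene, fell with a log2 fold change of -3.01 for GLY (adjusted p = 0.000594) and -2.66 for GLY_PUE (adjusted p = 0.00108), while PDGFRB and CD68 rose. CD14 was close to the detection limit, with 19, 20 and 17 counts in untreated, 4, 2 and 1 in GLY and 4, 4 and 1 in GLY_PUE libraries. The part of these shifts in the results was not tested, and in bulk RNA fewer cells of a type and less RNA per cell cannot be told apart.

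GLY raised 5 of the 6 genes and, with libraries scaled to their totals, lowered CEBPD, whose log2 value is 0.02 and not called when libraries are scaled within the table by TMM. ATF3, TRIB3, SESN2, STC2 and CEBPB were 2.64 to 4.98 times as high as in untreated cells, and CEBPD was 2.24 times lower. All 6 passed edgeR's quasi-likelihood test with Benjamini-Hochberg adjustment, and none of the 6 had overlapping GLY and untreated libraries. These counts stand against a table in which 84.3% of the genes tested passed in this comparison, 19.7% upward and 64.6% downward, and in which 83.3% did not overlap. The median log2 fold change was 1.68 over the 6 genes and -1.15 over all genes tested. The same 6 directions were called with GLY_PUE against untreated cells, where 77.3% of genes passed (20.2% upward, 57.1% downward) and 87.3% did not overlap. The authors' own thresholds had marked all 6 genes for GLY and for GLY_PUE against untreated cells, with 77.8% and 69% of the table. A pass in these comparisons was therefore close to fixed in advance and is no separate support. PUE alone, and PUE added to GLY, gave no call for any of the 6.

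**Figure D1:**
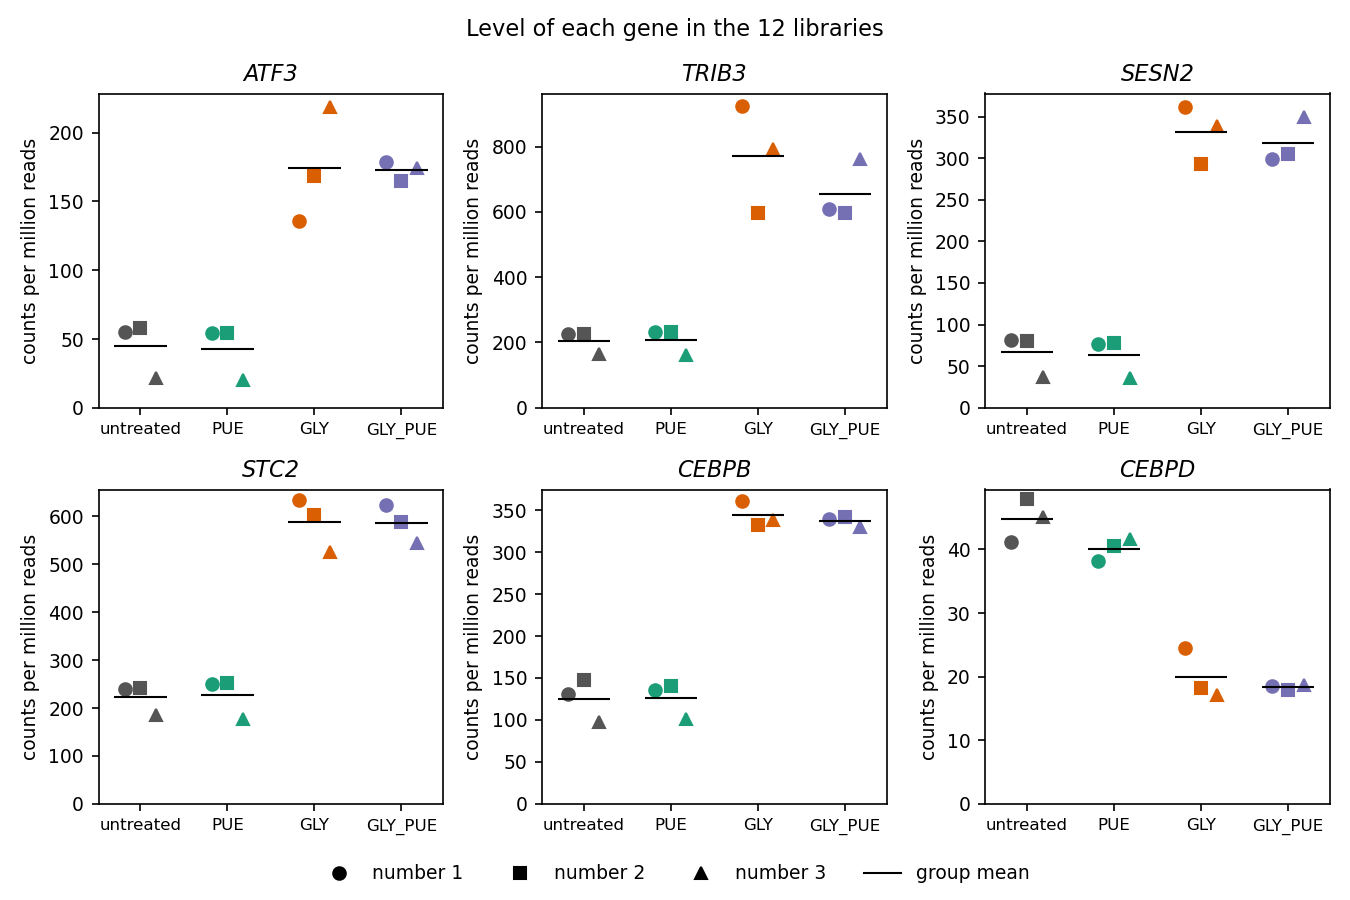
Level of each of the 6 genes in CPM (linear axis from 0) in the 12 libraries, grouped by treatment. Symbols give the replicate number and horizontal lines the group mean over 3 libraries. Libraries with GLY lie above those without it for ATF3, TRIB3, SESN2, STC2 and CEBPB and below them for CEBPD on library totals (TMM log2 value 0.02 under GLY), and the number 3 libraries without GLY are low for the same 5 genes.

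Among the transcription factors, ATF3 is a bZIP factor induced by many stresses that can repress or activate its targets. Its levels were 55.1, 57.8 and 21.3 CPM in untreated replicates 1, 2 and 3, and 54.7, 54.4 and 20.1 CPM under PUE. Under GLY they were 136, 168 and 219 CPM, and under GLY_PUE 178, 165 and 174 CPM. Every library with GLY was above every library without it, and replicate 3 was the lowest in both groups without GLY. The mean rose from 44.8 ± 20.3 to 174 ± 41.8 CPM with GLY, a log2 fold change of 1.96 (SE 0.42, adjusted p = 0.00164). With GLY_PUE the mean was 173 ± 7.04 CPM and the log2 fold change 1.95 (SE 0.42, adjusted p = 0.00184). Among the GLY libraries replicate 1 was the lowest and replicate 3 the highest.

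CEBPB encodes C/EBP-beta, a bZIP factor of inflammation and differentiation that pairs with ATF4 on shared elements. It stood at 131, 147 and 97.3 CPM in untreated cells and 136, 141 and 101 CPM under PUE. GLY gave 361, 333 and 338 CPM, and GLY_PUE gave 340, 342 and 330 CPM. The libraries with GLY lay close together, within an SD of 15.2 CPM for GLY and 6.40 CPM for GLY_PUE. The log2 fold change was 1.46 for GLY (SE 0.22, adjusted p = 0.00021) and 1.43 for GLY_PUE (SE 0.22, adjusted p = 0.000251).

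CEBPD encodes C/EBP-delta, a relative of C/EBP-beta that is induced in acute inflammation and in growth arrest. It moved the other way: 41.2, 47.9 and 45.1 CPM in untreated cells and 38.1, 40.5 and 41.7 CPM under PUE, against 24.5, 18.2 and 17.1 CPM under GLY and 18.6, 17.96 and 18.7 CPM under GLY_PUE. GLY replicate 1 was the highest of the libraries with GLY and still below all without it. The log2 fold change was -1.17 for GLY (SE 0.21, adjusted p = 0.000616) and -1.28 for GLY_PUE (SE 0.21, adjusted p = 0.000415). This fall is close to the median of all genes tested, and CEBPD ranked 1769 of 3429 from the highest fold change under GLY. Its call depends on the scaling: with TMM within the table, which sets the typical listed gene to no change, the log2 value was 0.02 for GLY (adjusted p = 0.985) and -0.28 for GLY_PUE (adjusted p = 0.498).

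Among the effectors, TRIB3 encodes a pseudokinase that binds ATF4 and AKT and is a classical late target of the pathway. Untreated cells had 226, 226 and 166 CPM and PUE cells 233, 232 and 162 CPM. GLY cells had 924, 598 and 792 CPM and GLY_PUE cells 608, 597 and 762 CPM. GLY replicate 1 stood highest and replicate 2 lowest among the GLY libraries, and none reached down to the untreated range. The log2 fold change was 1.91 for GLY (SE 0.25, adjusted p = 9.61e-05) and 1.67 for GLY_PUE (SE 0.25, adjusted p = 0.000208).

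SESN2 encodes sestrin 2, a leucine-binding protein that restrains mTORC1 and supports antioxidant defence. Its untreated libraries had 82.0, 80.5 and 36.9 CPM, and its PUE libraries 77.0, 77.3 and 36.3 CPM. With GLY the values were 361, 293 and 338 CPM, and with GLY_PUE 299, 305 and 350 CPM. The number 3 libraries were again the low ones without GLY, and they were not low with it. SESN2 had the largest log2 fold change of the 6 genes, 2.32 for GLY (SE 0.35, adjusted p = 0.000222) and 2.26 for GLY_PUE (SE 0.35, adjusted p = 0.000272), and ranked 118 of 3429 under GLY.

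STC2 encodes stanniocalcin 2, a secreted glycoprotein induced by ER stress and hypoxia. It measured 240, 241 and 186 CPM in untreated cells and 250, 253 and 178 CPM under PUE. It measured 633, 604 and 526 CPM under GLY and 623, 589 and 545 CPM under GLY_PUE. Replicate 3 was the lowest in all 4 groups. The log2 fold change was 1.40 for GLY (SE 0.21, adjusted p = 0.000226) and 1.40 for GLY_PUE (SE 0.21, adjusted p = 0.000249), the smallest of the 5 rises.

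The 5 risen genes ranked 118 to 372 of 3429 from the highest fold change under GLY, and rose further when libraries were scaled within the table. TMM shifted the median log2 value of all genes by 1.13 for GLY and 1.01 for GLY_PUE. It gave 3.44 for SESN2, 3.07 for TRIB3, 3.03 for ATF3, 2.60 for CEBPB and 2.55 for STC2 under GLY. Over the whole table it turned 674 upward and 2216 downward calls for GLY into 812 and 346, and 694 and 1957 for GLY_PUE into 817 and 394. Against PUE cells, which are controls of their own, GLY_PUE gave log2 fold changes of 2.32 for SESN2, 2.00 for ATF3, 1.65 for TRIB3, 1.42 for CEBPB, 1.37 for STC2 and -1.12 for CEBPD. All 6 passed there, in a comparison in which 77.8% of genes tested passed (20.6% upward, 57.3% downward). The comparisons of GLY and of GLY_PUE with untreated cells share their control libraries, so their likeness is not a separate result. In the authors' deposited table the log2 ratios for GLY were 1.96 for ATF3, 1.91 for TRIB3, 2.32 for SESN2, 1.40 for STC2, 1.46 for CEBPB and -1.17 for CEBPD.

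**Figure D2:**
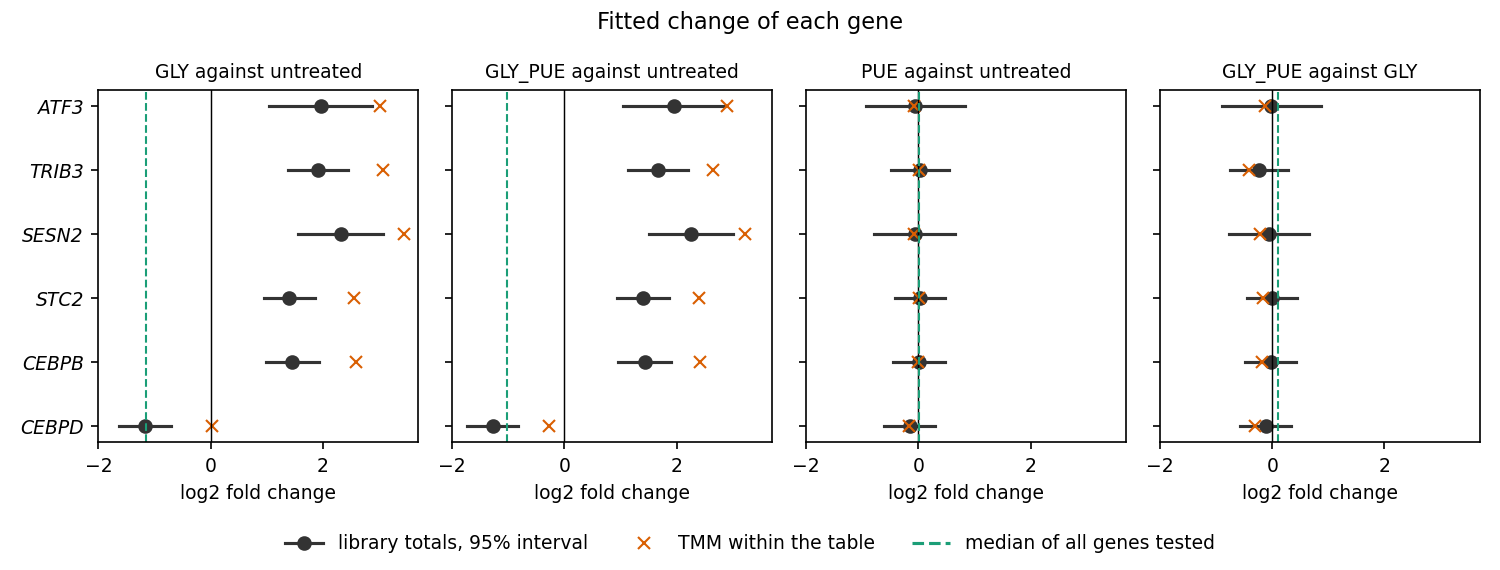
Log2 fold change of each gene in 4 comparisons. Points and bars are the edgeR value on library totals and its 95% interval, crosses the value with TMM within the table, and the dashed line the median of all 3429 genes tested. Bars clear 0 for all 6 genes in both comparisons of GLY with untreated cells and cross 0 for all 6 in the comparisons that test PUE, and the TMM cross for CEBPD lies near 0 under GLY.

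Levels can be compared between the genes per length, in FPKM (counts scaled to gene length and library total). TRIB3 was the highest of the 6 in every group, at 96.4 ± 16.4 FPKM in untreated cells and 367 ± 80.9 FPKM under GLY. CEBPB came next, at 59.7 ± 12.1 FPKM and 164 ± 7.21 FPKM. Below it in untreated cells came STC2 at 41.4 ± 5.88 and CEBPD at 36.3 ± 2.74 FPKM, whose libraries overlapped, then ATF3 at 20.7 ± 9.25 and SESN2 at 18.8 ± 7.23 FPKM, which also overlapped. PUE cells showed the same order, from 98.0 FPKM for TRIB3 to 18 FPKM for SESN2. Under GLY the order changed at its lower end: STC2 at 109 ± 10.2, SESN2 at 93.6 ± 10.0 and ATF3 at 82.3 ± 20.4 FPKM overlapped with their neighbours, and CEBPD was last at 16.2 ± 3.27 FPKM. Under GLY_PUE the order was the same as under GLY and no neighbours overlapped, with TRIB3 at 309 ± 45.5 and CEBPD at 14.96 ± 0.32 FPKM.

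PUE alone did not move any of the 6 genes past the test. With edgeR, 0 of 3429 genes (0%) passed for PUE against untreated cells, with 12 (0.35%) at an unadjusted p under 0.05 and none of the 6 among them, and DESeq2 also gave 0, with 4 unadjusted. The log2 differences and their 95% intervals were -0.06 (-0.94 to 0.83) for ATF3, 0.01 (-0.46 to 0.47) for CEBPB, -0.16 (-0.61 to 0.29) for CEBPD, 0.02 (-0.50 to 0.54) for TRIB3, -0.06 (-0.78 to 0.66) for SESN2 and 0.03 (-0.42 to 0.48) for STC2. These intervals carry the spread between library numbers, which untreated and PUE cells share. Without the libraries numbered 3 the SE for ATF3 fell from 0.41 to 0.19 and that for SESN2 from 0.33 to 0.17, at log2 differences of -0.05 and -0.07. Between same-numbered libraries the log2 ratios of the 6 genes ran from -0.24 for CEBPD to 0.07 for STC2. CEBPD, at -0.11, -0.24 and -0.12, ATF3, at -0.01, -0.09 and -0.09, and SESN2, at -0.09, -0.06 and -0.02, were lower with PUE in each of the 3 same-numbered pairs, and their groups overlapped. TRIB3, STC2 and CEBPB had both signs. How many of all genes keep the same sign over the 3 pairs was not counted, so no effect of PUE is read from these signs. The authors' deposited table gives CEBPD a log2 ratio of -0.16 with a q-value of 0.00645 in this comparison, while the adjusted p from edgeR was 1.00.

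Adding PUE to GLY did not move any of the 6 past the test either. For GLY_PUE against GLY, 0 of 3429 genes (0%) passed with edgeR, with 57 (1.66%) at an unadjusted p under 0.05 and none of the 6 among them, and 0 passed with DESeq2, with 49 unadjusted. TRIB3 showed the largest difference, -0.23 on the log2 scale (95% interval -0.75 to 0.28, adjusted p = 0.959). GLY replicate 1, at 924 CPM, lay above all the others, and the same-numbered log2 ratios were -0.60, -0.00024 and -0.06. The authors' deposited table gives TRIB3 a log2 ratio of -0.24 with a q-value of 2.6e-130, and SESN2 a log2 ratio of -0.06 with a q-value of 0.000118. With edgeR the 5 genes other than TRIB3 differed by -0.11 for CEBPD (-0.57 to 0.34), -0.06 for SESN2 (-0.77 to 0.66), -0.03 for CEBPB (-0.49 to 0.43), -0.01 for ATF3 (-0.89 to 0.87) and -0.005 for STC2 (-0.46 to 0.45). The effect of GLY in the presence of PUE minus its effect in the absence of PUE was likewise not called for any gene tested (0%), with 33 (0.962%) at an unadjusted p under 0.05 in edgeR and 22 in DESeq2, and for the 6 genes it ran from -0.26 for TRIB3 (95% interval -0.99 to 0.47) to 0.04 for CEBPD.

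The rises of ATF3 and SESN2 differed in size between the library numbers. Between libraries of the same number, ATF3 under GLY was 2.46, 2.91 and 10.2 times its untreated level for numbers 1, 2 and 3, and SESN2 was 4.41, 3.64 and 9.16 times. Under GLY_PUE the ratios were 3.24, 2.85 and 8.17 for ATF3 and 3.65, 3.79 and 9.47 for SESN2. TRIB3 gave 4.09, 2.65 and 4.77 under GLY, CEBPB 2.75, 2.26 and 3.48, and STC2 2.64, 2.50 and 2.83. For CEBPD the GLY level was 0.596, 0.380 and 0.378 of the untreated one. These ratios describe single libraries, and the labels do not say what a shared number marks.

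**Figure D3:**
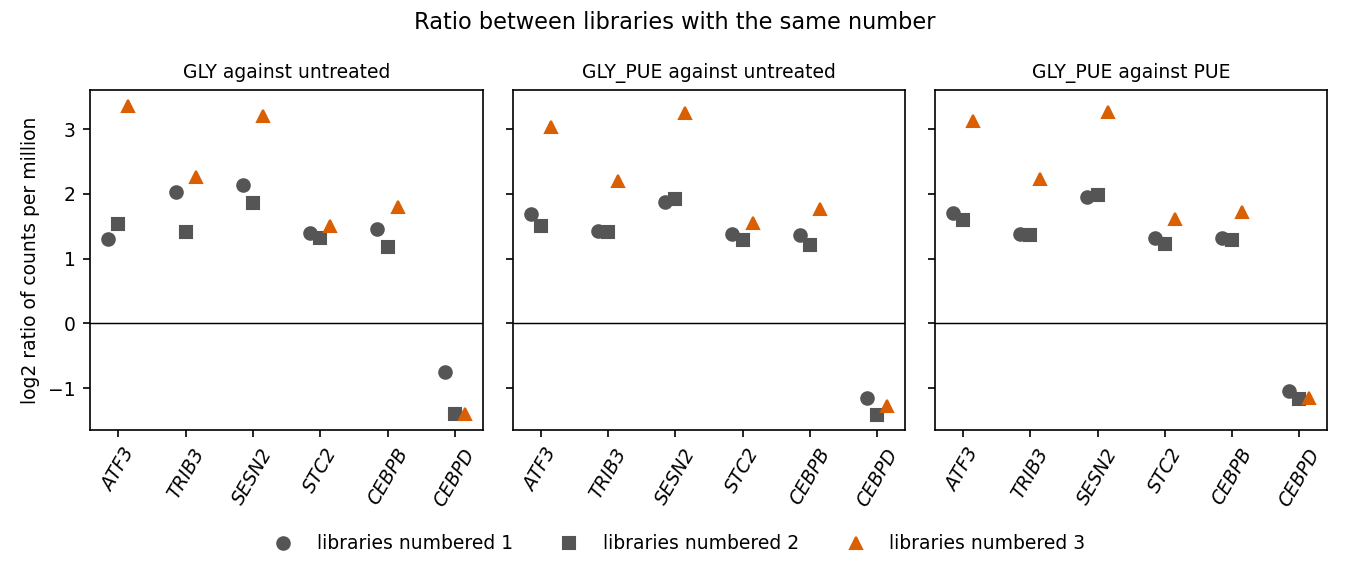
Log2 ratio of CPM between libraries of the same number, for GLY and GLY_PUE against untreated and for GLY_PUE against PUE. Each symbol is 1 pair of libraries. For ATF3 and SESN2 the number 3 symbols lie above 3 on the log2 scale and the others between 1.30 and 2.14, whereas the 3 symbols lie close together for STC2.

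The difference was tested after these values were seen, with edgeR over all 12 libraries, GLY present or absent and number 3 or not. Number 3 libraries entered this fit as replicates, although they deviated together (correlations of 0.164 to 0.702). Its SE and p-values describe the spread between libraries and not a spread between library numbers. Without GLY, number 3 libraries were lower by a log2 value of -1.42 for ATF3 (SE 0.15, adjusted p = 0.000107), -1.11 for SESN2 (SE 0.12, adjusted p = 0.000128), -0.49 for CEBPB (SE 0.11, adjusted p = 0.00687) and -0.44 for STC2 (SE 0.10, adjusted p = 0.00776). TRIB3, at -0.48 (adjusted p = 0.0662), and CEBPD, at 0.05 (adjusted p = 0.86), did not pass. With GLY none of the 6 passed. The effect of GLY was larger in number 3 than in numbers 1 and 2 by a log2 value of 1.70 for ATF3 (SE 0.21, adjusted p = 0.00198) and 1.24 for SESN2 (SE 0.17, adjusted p = 0.00275), a test that 4.99% of all genes passed. It was 0.67 for TRIB3 (adjusted p = 0.145), 0.45 for CEBPB (adjusted p = 0.111), 0.24 for STC2 (adjusted p = 0.357) and -0.20 for CEBPD (adjusted p = 0.752), none of which passed. Without the 4 libraries numbered 3, GLY still raised ATF3 by 1.43, TRIB3 by 1.75, SESN2 by 2.01, STC2 by 1.36 and CEBPB by 1.317 on the log2 scale and CEBPD stood at -1.06, and all 6 passed, in a comparison that 72.5% of genes passed. For GLY_PUE the values without them were 1.60, 1.42, 1.90, 1.33, 1.29 and -1.29 in the same order, and all 6 passed as well, beside 66% of genes. For GLY_PUE against PUE they were 1.65, 1.37, 1.97, 1.27, 1.30 and -1.11, with all 6 passing beside 67.3% of genes. Without these libraries none of the 6, and 0% of genes, passed for PUE against untreated cells, for GLY_PUE against GLY or for the difference between the effects of GLY. At an unadjusted p under 0.05 edgeR gave 28, 154 and 83 of 3391 genes in these comparisons, none of the 6 among them. What sets number 3 apart was not tested.

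The genes around the 6 in the pathway were followed through lists of regulators, partners and targets, and most of their members in the table rose with GLY. Of 14 eIF2 kinases, eIF2B and phosphatase subunits, 2 are in the table: PPP1R15A, whose product GADD34 returns eIF2 to its unphosphorylated form, rose with GLY (log2 1.84, SE 0.50, adjusted p = 0.00561), and DNAJC3, an inhibitor of the eIF2 kinases, did not pass at 0.96 (adjusted p = 0.054). The GLY libraries of DNAJC3 were far apart, at 46.1, 133 and 251 CPM, with replicate 1 below every untreated library; the value was 0.28 without GLY replicate 3 and 1.38, with a call, without GLY replicate 1. Both passed with GLY_PUE, though DNAJC3, at 1.09 (adjusted p = 0.0369), lost that call without any 1 of the untreated or GLY_PUE libraries. Of 29 bZIP factors including ATF4, 9 are in the table, of which 8 rose under GLY, 0 fell and 1 did not pass. DDIT3, which encodes the death-promoting factor CHOP, rose by 1.98 (SE 0.39, adjusted p = 0.00109), the small Maf genes MAFF and MAFK by 1.66 and 1.65, and BATF3 by 1.60. BATF3 was at 0.95 under GLY_PUE, where it lost its call without untreated replicate 1, untreated replicate 3, GLY_PUE replicate 1 or GLY_PUE replicate 2. DDIT3 had the number 3 pattern of ATF3 and SESN2: 111, 114 and 48.5 CPM in untreated, 117, 122 and 48.5 CPM in PUE, 414, 265 and 401 CPM in GLY and 301, 254 and 356 CPM in GLY_PUE libraries, with a difference of 1.55 between numbers (adjusted p = 0.00559). PPP1R15A had it too, at 1.65 (adjusted p = 0.00198). In all, 5 of the 9 bZIP genes passed that test upward, beside 4.99% of all genes tested (98 upward, 73 downward). Besides DDIT3 these were JUN at 1.43 (adjusted p = 0.00198), FOSL1 at 1.23 (adjusted p = 0.0114), FOSB at 1.00 (adjusted p = 0.00897) and XBP1 at 0.87 (adjusted p = 0.00823), named after their values were seen. In number 3 without GLY, JUN stood at -1.57, FOSL1 at -1.78 and FOSB at -1.97. With GLY, FOSB was still lower in number 3 at -0.97 (adjusted p = 0.00129) and XBP1 was higher at 0.53 (adjusted p = 0.00829).

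Of 21 further stress effectors downstream of ATF4, 13 are in the table, of which 10 rose with GLY, 2 fell and 1 did not pass, and 11 rose and 2 fell with GLY_PUE. GADD45A, a growth arrest gene, rose by 2.26 (SE 0.26, adjusted p = 5.27e-05), from 52.8 ± 7.06 to 254 ± 65.4 CPM. DDIT4, an inhibitor of mTORC1, rose by 1.81 (SE 0.30, adjusted p = 0.00036), CDKN1A, which encodes the cell cycle inhibitor p21, by 1.72 (SE 0.23, adjusted p = 0.000113), and ADM2, a peptide hormone gene, by 1.44 (SE 0.23, adjusted p = 0.000302). The pair that fell, named after their values were seen, was TXNIP, which encodes a thioredoxin inhibitor, at -2.80 (SE 0.47, adjusted p = 0.000439), and VLDLR, a lipoprotein receptor gene, at -1.47 (SE 0.30, adjusted p = 0.00115). TXNIP still passed with TMM (-1.74) and VLDLR did not (-0.38). Amino acid genes were few. Of 12 synthesis genes 2 are in the table and both rose: ASNS, asparagine synthetase, by 1.12 (SE 0.26, adjusted p = 0.00242), and CTH, which makes cysteine, by 1.00 (SE 0.37, adjusted p = 0.0265). CTH fell to 0.55 and lost its call without GLY replicate 3, and also lost it without untreated replicate 1 or untreated replicate 2. Of 10 transporters 3 are in the table: SLC3A2, the heavy chain of several amino acid exchangers, rose by 1.12 (SE 0.24, adjusted p = 0.00176), the cystine carrier SLC7A11 did not pass at 0.67 (adjusted p = 0.132), and the glutamine carrier SLC1A5 stood at -0.96 (SE 0.22, adjusted p = 0.00246) but at 0.24 with TMM and 0.17 with DESeq2 size factors, neither of which passed. The GLY libraries of SLC7A11 were far apart, at 16.6, 63.7 and 78.0 CPM, with replicate 1 below every untreated library. SLC7A11 passed under GLY with TMM (1.72, adjusted p = 0.00188). It also passed with GLY_PUE (1.04, adjusted p = 0.0334), a call kept in 16 of 24 alternatives. Of 13 aminoacyl-tRNA synthetases 2 are in the table, SARS at 1.22 (SE 0.22, adjusted p = 0.000557) and WARS at 1.00 (SE 0.25, adjusted p = 0.00358), and both rose.

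Relatives of the 6 genes from the same families split in direction. Of 11 relatives, 4 are in the table, of which 2 rose and 2 fell with GLY. TRIB2, a paralogue of TRIB3, had 36.3, 38.6 and 59.1 CPM in untreated, 32.5, 34.4 and 60.9 CPM in PUE, 2.16, 4.65 and 6.52 CPM in GLY and 4.37, 4.30 and 6.77 CPM in GLY_PUE libraries. No library with GLY came near one without it, and the log2 fold change was -3.33 (SE 0.43, adjusted p = 9.02e-05), or -2.22 with TMM. SESN3, a paralogue of SESN2 that FOXO factors are known to induce, had 22.2, 22.7 and 63.2 CPM in untreated and 1.39, 4.61 and 5.14 CPM in GLY libraries, a log2 fold change of -3.28 (SE 0.57, adjusted p = 0.000496), or -2.14 with TMM. Both were higher, not lower, in number 3 libraries without GLY, TRIB2 by 0.76 (adjusted p = 0.0326) and SESN3 by 1.37 (adjusted p = 0.0105). TRIB3 and SESN2 thus rose while these paralogues fell, under both scalings. CEBPG, a C/EBP partner of ATF4, rose by 0.97 (SE 0.25, adjusted p = 0.00467), from 129, 130 and 119 CPM to 159, 250 and 329 CPM, and DDIT3 is the other that rose.

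Of 16 ER chaperone and folding genes, which belong to the unfolded protein response beside ATF4, 10 are in the table, of which 9 rose with GLY, 0 fell and 1 did not pass, and all 10 rose with GLY_PUE. HSPA5, which encodes the chaperone BiP, rose by 2.86 (SE 0.37, adjusted p = 9.02e-05), from 644 ± 8.25 to 4679 ± 2641 CPM, and exceeded each of the 6 genes in log2 fold change. SDF2L1 rose by 2.05 (SE 0.37, adjusted p = 0.000589), MANF by 1.74 (SE 0.28, adjusted p = 0.000309) and HYOU1 by 1.66 (SE 0.28, adjusted p = 0.000446). These counts stand beside a table in which 19.7% of genes rose, and the lists overlap in DDIT3, CEBPG and DNAJC3. With TMM every bZIP, ER chaperone, amino acid synthesis and tRNA synthetase gene of these lists in the table was called higher under GLY. Over all genes tested TMM called 812 of 3429 higher in that comparison, and it shifted the median log2 value up by 1.13. None of the listed genes passed for PUE against untreated cells or for GLY_PUE against GLY. Without the libraries numbered 3, 4 listed genes changed their call under GLY: FOSB gained one, and VEGFA, CTH and HSP90B1 lost theirs. Under GLY_PUE, FOSB gained a call and BATF3, CHAC1, FAM129A, SLC7A11 and DNAJC3 lost theirs.

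**Figure D4:**
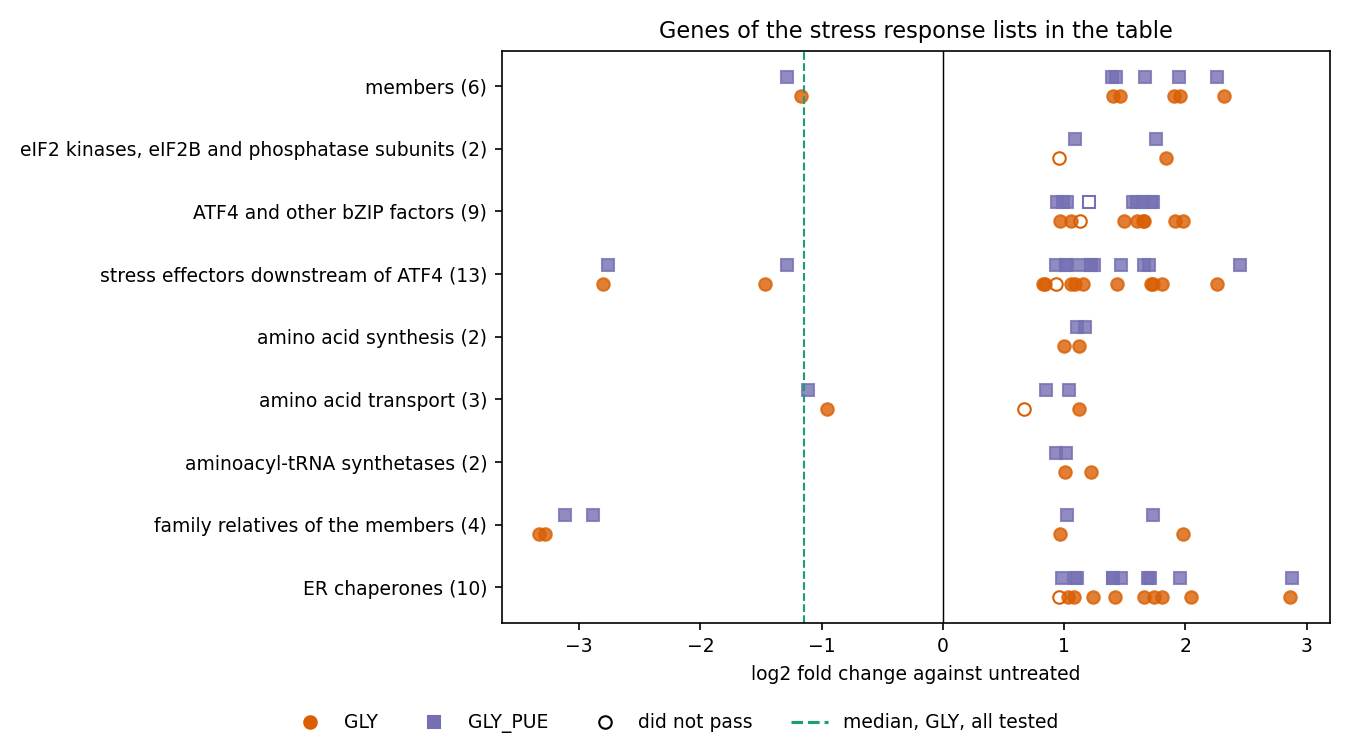
Log2 fold change against untreated cells of the genes of each list that are in the table, for GLY (circles) and GLY_PUE (squares); open symbols did not pass the test and the dashed line is the median of all genes tested under GLY. Most symbols lie to the right of 0, while CEBPD, TXNIP, VLDLR, SLC1A5, TRIB2 and SESN3 lie to the left on library totals. With TMM under GLY, CEBPD moves to 0.02 and SLC1A5 to 0.24.

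Finally, the genes most like each of the 6 over the 12 libraries were listed by Pearson correlation of log2 CPM among 2457 genes, as a description. ATF3 was most like AREG (r = 0.995) and ZFP36 (r = 0.993). TRIB3 was most like RHOF (0.997) and MICALL1 (0.996), and SESN2 was most like ITPRIP (0.997) and HBEGF (0.995). STC2 was most like SEMA7A (0.995) and CEBPB (0.995), CEBPB was most like HBEGF (0.997) and ACP7 (0.996), and CEBPD was most like SLC52A3 (0.992) and MGAT4B (0.990). The 12 libraries fall into those with and without GLY, so high values are common: 250 to 323 genes exceeded 0.9 for each of the 5 risen genes and 621 for CEBPD.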

How the data were processed

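RNA from 12 SW480 libraries, 3 in each of 4 groups, was sequenced on the BGISEQ500 platform, per the labels' protocols. The data come as 1 table of 3699 genes made by the authors. Its deposited estimated counts per gene and library are, per the file headers, read counts without normalization, of which 58.2% were whole (within 1e-06); those of ATF3, SESN2 and STC2 were whole in all libraries, while those of TRIB3, CEBPB and CEBPD had decimals. The deposited Expression column has no unit in its header and behaves as FPKM. The remaining deposited columns used are the authors' log2 ratios and q-values, and 8 columns of group means were not used. The submitters' processing notes name TopHat and DESeq 1.32.0 without a role. How reads were counted, on which build and with which annotation, is not given in the sources used here. All listed genes reach a log2 ratio of 1 in size with a q-value of 0.001 or less in some comparison of the authors, so the table is a selection.

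Dividing counts by FPKM gave relative library totals, using the 625 genes that had 100 or more counts and 5 or more FPKM throughout. The absolute scale came from 39 genes with a single transcript in GENCODE release 29 (quartiles 19.3 to 20.6 M reads). The table's share of all reads was 14.4% ± 0.531 for untreated, 14.4% ± 0.515 for PUE, 14.96% ± 0.754 for GLY and 15.3% ± 0.111 for GLY_PUE (SD, n = 3). Counts were rounded and fitted with edgeR 4.0.16 in R 4.3.3 (filterByExpr, robust quasi-likelihood, 4 groups over 12 libraries, recovered totals as library sizes, no TMM). Benjamini-Hochberg adjustment ran over the 3429 genes left, with a threshold of 0.05; all 6 genes passed the filter, with a lowest count of 358.5. The fit was also run on simulated counts, with few genes changed and no difference between library numbers. That setting is simpler than these data, so it does not check the scaling or the number 3 spread. Sensitivity was examined with 13 kinds of alternative, including limma 3.58.1 and DESeq2 1.42.0.

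The 6 genes, the lists and the scaling were chosen with earlier results of these data known. Named genes are the 6 in every comparison, up to 4 genes of each list with the smallest p under GLY, and the 2 genes most correlated with each of the 6 (log2 CPM with a prior count of 2).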

Additional observations from a re-analysis of the deposited data

Results flagged for a closer look

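ATF3 and SESN2 stood out because their response to GLY differed between libraries numbered 3 and libraries numbered 1 and 2. The difference of the log2 effects, pooled over the groups with and without PUE, was 1.70 for ATF3 (SE 0.21, adjusted p = 0.00198, edgeR) and 1.24 for SESN2 (SE 0.17, adjusted p = 0.00275), in a test added after the values by library had been seen. In number 3 libraries without GLY, ATF3 was at 21.3 and 20.1 CPM and SESN2 at 36.9 and 36.3 CPM, below all other libraries, while their levels with GLY did not differ by number past the threshold. These p-values treat the number 3 libraries as replicates, although they deviated together, so they measure no spread between library numbers. Passing this test is not particular to ATF3 and SESN2. Of 48 genes of the pathway, family and marker lists in the table, 15 passed it, all 15 upward, by 0.75 to 1.65. Among them were 5 of 9 bZIP genes and 5 of 10 ER chaperone genes. Over all 3429 genes tested 4.99% passed, 98 upward and 73 downward. The levels behind it differed. JUN in number 3 stood at -1.57 without GLY (adjusted p = 2.26e-05) and -0.15 with GLY (adjusted p = 0.449). HSPA5 stood at -0.08 (adjusted p = 0.723) and 1.05 (adjusted p = 0.000852). TXNIP fell with GLY, so its upward value of 1.60 is a smaller fall in number 3. The labels give no property that sets number 3 apart, apart from the 14 h printed for GLY replicate 3, and a cause was not tested.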

How the results depend on the processing

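Over 24 alternatives for each comparison (23 for the difference of GLY effects, where restricting the libraries changes nothing), 852 of 858 values of the 6 genes kept their call. The 6 that did not are all CEBPD under scaling within the table. With TMM its log2 fold change was 0.0217 for GLY (adjusted p = 0.985), -0.28 for GLY_PUE (adjusted p = 0.498) and -0.11 for GLY_PUE against PUE (adjusted p = 0.837). With DESeq2 size factors (RLE) it was -0.0493 (adjusted p = 0.944), -0.30 (adjusted p = 0.41) and -0.13 (adjusted p = 0.771). Under both scalings the typical listed gene is set to no change by construction. SLC1A5 under GLY turned from -0.96 to 0.24 with TMM and 0.17 with RLE. Of 1434 values for 30 other named genes, 1387 kept their call and 45 moved across the threshold without changing sign, all in CTH, DNAJC3, SLC7A11, SLC1A5, VIL1 and BATF3; the cause was not tested. Calls over the whole table for GLY fell from 2890 to 1158 with TMM and 1188 with RLE, for GLY_PUE from 2651 to 1211 and 1234, and for GLY_PUE against PUE from 2669 to 1232 and 1250.

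Leaving out single libraries moved the log2 fold change of ATF3 under GLY between 1.62 and 2.19, SESN2 between 2.03 and 2.49 and CEBPD between -1.34 and -1.07, with every call for the 6 genes kept. Same-numbered libraries deviated together with a correlation over 0.1 in 14 of 18 pairs (0.0197 to 0.702), short of every pair, so the numbers were not treated as pairing. Those numbered 3 did so in all 6 of their pairs (0.164 to 0.702), and 4 of 12 libraries correlated best with their own number. With a replicate block all 6 genes were called under GLY, at 2.09 for ATF3 and 2.39 for SESN2 (-1.17 for CEBPD), and calls over the table numbered 3086, 2926 and 2949. It changed no call for the 6 genes.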
